A study of Mus musculus with 9 samples.

Results

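The kinesin family was followed across donor T cells of a mouse transplant experiment. Members were the rows of the deposited count table whose Ensembl identifier belongs to a protein-coding mouse gene named Kif, a number and optional letters. The rule found 35 motor genes among the 29229 genes of the table. Of these, 11 are motors of the spindle and of cell division (mitotic), 14 carry vesicles, organelles or other cargo (transport) and 10 have other roles. Kif1bp also meets the naming rule, but its product binds kinesins and has no motor, and it was counted with the cargo adaptors. Kif2b, Kif6 and Kif12 were not analysed here. Counts of 30 members passed the expression filter, among them all 11 mitotic, 12 transport and 7 other kinesins.

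Total RNA of splenic T cells, enriched and gated for live cells with CD3 and CD45.2, was sequenced after removal of ribosomal RNA, in 3 groups of 3 libraries. Naive libraries came from healthy mice that had no transplant and are titled C57BL/6. Syngeneic libraries were donor cells taken on day 7 from irradiated B6.SJL-Ptprca Pepcb/BoyJ recipients (H-2b, CD45.1), which had 9.5 Gy and 8500000 T cells from C57BL/6 donors. Allogeneic libraries were donor cells taken on day 7 from CByJ.SJL(B6)-Ptprca/J recipients (H-2d, CD45.1), which had 8 Gy and 1000000 T cells from C57BL/6 donors. All recipients also had 5000000 marrow cells depleted of T cells, whose progeny can carry CD45.2. Donors and recipients were female and 8 to 12 weeks old, and each transplant library pooled 2 to 4 recipients. The strain tag gives the syngeneic recipient strain for all libraries and was not used. Host type, radiation and T-cell number changed together between the transplant groups and cannot be told apart.

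Kinesins are motor proteins that split ATP to walk along microtubules or to take microtubules apart at their ends. Resting T cells do not divide and use transport kinesins to place organelles, granules and receptors, while a T cell that enters division makes a second set that builds the spindle, moves chromosomes and closes the cleavage furrow. Genes of that second set are transcribed mainly in late S phase, G2 and mitosis in dividing cells. The comparison of the groups therefore sets a motor set tied to division beside one tied to cargo.

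Libraries held 103953932 to 176678189 counts. Levels are counts per 1000000 of the column total (CPM), and fold changes come from edgeR's quasi-likelihood test over the 19609 genes that passed the filter, where a gene was called when its p, adjusted by Benjamini-Hochberg, was under 0.05 (edgeR adjusted p). The 14 T-cell markers, among them the CD3 chains, summed to 6017 to 6606 CPM in naive, 4335 to 5278 CPM in syngeneic and 6317 to 6709 CPM in allogeneic cells. The 13 erythroid markers summed to 8.98 to 10.5 CPM in naive, 2424 to 6444 CPM in syngeneic and 31.4 to 98.3 CPM in allogeneic cells. The 10 neutrophil markers summed to 4.24 to 8.24 CPM in naive, 415 to 1384 CPM in syngeneic and 626 to 1117 CPM in allogeneic cells. Within the syngeneic group library 1 stood apart, with 2424 CPM of erythroid markers against 5510 and 6444 CPM and 415 CPM of neutrophil markers against 1280 and 1384 CPM. Allogeneic library 1 stood further apart, with a chi-square per degree of freedom over genes of 362 and 335 against allogeneic libraries 2 and 3, which had 44.6 between them, and with 17.24% of its counts in Gm26917 and Gm42418 against 9.06 and 7.87%. The 14 macrophage and monocyte markers summed to 4.26 to 5.51 CPM in naive, 53.4 to 213 CPM in syngeneic and 50.6 to 88.7 CPM in allogeneic cells, and the 12 B-cell markers to 469 to 495, 536 to 962 and 968 to 1505 CPM. None of the listed marker genes that were measured had 0 counts in all libraries. The part of these other cells in the results was not tested. In RNA from bulk cells, a larger share of cells with a transcript and more of it per cell cannot be told apart.

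All 11 mitotic kinesins rose in both transplant groups against naive cells, by 4.28- to 28.3-fold in syngeneic and 5.06- to 32.9-fold in allogeneic libraries. No transplant library overlapped a naive library for any of them. Of all genes tested, 41.9% were called in either direction and 22.4% higher in syngeneic libraries, and 57.7% in either direction and 31.8% higher in allogeneic libraries. With at least a 2-fold change, as all 11 members had, 13.4% and 17.0% were called higher. The libraries did not overlap for 56.5% of genes between syngeneic and naive and for 65.1% between allogeneic and naive libraries. The median log2 fold change over the 11 genes was 4.20 in syngeneic and 4.62 in allogeneic libraries, where the median over all genes tested was 0.01 and -0.01. Both comparisons share the naive libraries. All 10 neutrophil markers were also called higher in both comparisons, with median log2 fold changes of 7.81 in syngeneic and 7.90 in allogeneic libraries. All 13 erythroid markers were higher in syngeneic libraries (median 11.2), and 11 were higher and 0 lower in allogeneic libraries (3.36). All 14 macrophage and monocyte markers were higher in syngeneic libraries (6.75), and 11 were higher and 0 lower in allogeneic libraries (3.73). Of 8 NK-cell markers, 5 were higher and 1 lower in syngeneic, and 6 and 1 in allogeneic libraries. The part of these other cells in the rise of the mitotic kinesins was not tested.

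Kif11 encodes the tetrameric motor Eg5, which slides spindle microtubules apart. Its level was 5.91, 7.40 and 7.45 CPM in naive, 117, 178 and 177 CPM in syngeneic and 192, 156 and 176 CPM in allogeneic cells. Every transplant library lay more than 10-fold above the naive range, and the transplant groups overlapped. The log2 fold change against naive was 4.54 ± 0.18 (SE) in syngeneic (edgeR adjusted p = 2.35e-08) and 4.72 ± 0.18 in allogeneic libraries (edgeR adjusted p = 4.05e-09). Kif15, a plus-end motor that can stand in for Eg5 in spindle assembly, was at 2.68, 4.30 and 3.23 CPM in naive, 57.4, 85.1 and 89.0 CPM in syngeneic and 79.6, 71.7 and 88.3 CPM in allogeneic cells. It followed the same pattern, a rise from naive and overlap between the transplant groups.

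The motors that act on chromosomes and kinetochore fibres rose as well. Kif4, a chromosome-arm motor that also reaches the central spindle, was at 2.02, 3.59 and 3.08 CPM in naive, 50.3, 73.1 and 81.4 CPM in syngeneic and 94.5, 79.8 and 80.4 CPM in allogeneic cells. Kif22, the chromokinesin Kid that pushes chromosome arms toward the spindle equator, was at 5.10, 6.52 and 6.40 CPM in naive, 53.8, 68.0 and 81.0 CPM in syngeneic and 109, 92.9 and 92.3 CPM in allogeneic cells. Its allogeneic libraries lay above all syngeneic ones. Kif2c encodes MCAK, which removes tubulin from microtubule ends at centromeres. Kif2c was at 1.88, 2.10 and 2.19 CPM in naive, 27.9, 36.1 and 47.0 CPM in syngeneic and 69.3, 57.4 and 57.1 CPM in allogeneic cells, so that the groups stood in 3 separate tiers. Kif18a, which damps chromosome movements at the spindle plus ends, was the lowest of the set per kb of exon in the transplant groups, with a mean of 19.5 ± 6.40 CPM (SD, n = 3) in syngeneic and 17.3 ± 2.42 CPM in allogeneic against 2.71 ± 0.21 CPM in naive libraries. Its relative Kif18b rose from 2.56 ± 0.19 CPM in naive to 69.3 ± 16.0 CPM in syngeneic and 81.1 ± 0.96 CPM in allogeneic cells. At a log2 fold change of 5.04 ± 0.15, Kif18b had the largest change of the family against naive in allogeneic libraries (edgeR adjusted p = 1.29e-09).

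The motors of the central spindle and of cytokinesis split by size of change. Kif20a, the midzone motor MKLP2 that brings the chromosomal passenger complex to the anaphase spindle, was at 4.63, 4.97 and 6.29 CPM in naive, 55.2, 74.6 and 84.4 CPM in syngeneic and 119, 95.7 and 105 CPM in allogeneic cells. The 3 groups did not overlap. Kif14, a midbody motor that binds citron kinase, rose from 2.55 ± 0.49 CPM in naive to 70.6 ± 18.0 CPM in syngeneic and 77.8 ± 4.32 CPM in allogeneic cells. Kif23, the motor of the centralspindlin complex, and Kif20b, a motor of late cytokinesis, rose less, and per kb of exon they had the highest mean levels of the set in naive cells, at 1.42 ± 0.14 and 1.29 ± 0.08 CPM per kb (SD, n = 3). Kif23 was at 11.0, 10.2 and 12.4 CPM in naive, 59.8, 83.3 and 88.4 CPM in syngeneic and 80.2, 77.3 and 78.9 CPM in allogeneic cells. Kif20b was at 8.32, 9.30 and 9.26 CPM in naive, 28.7, 42.8 and 41.2 CPM in syngeneic and 44.3, 43.6 and 42.7 CPM in allogeneic cells. Its log2 fold change against naive, 2.10 ± 0.13 in syngeneic and 2.34 ± 0.13 in allogeneic libraries, was the smallest of the 11 in each.

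**Figure D1:**
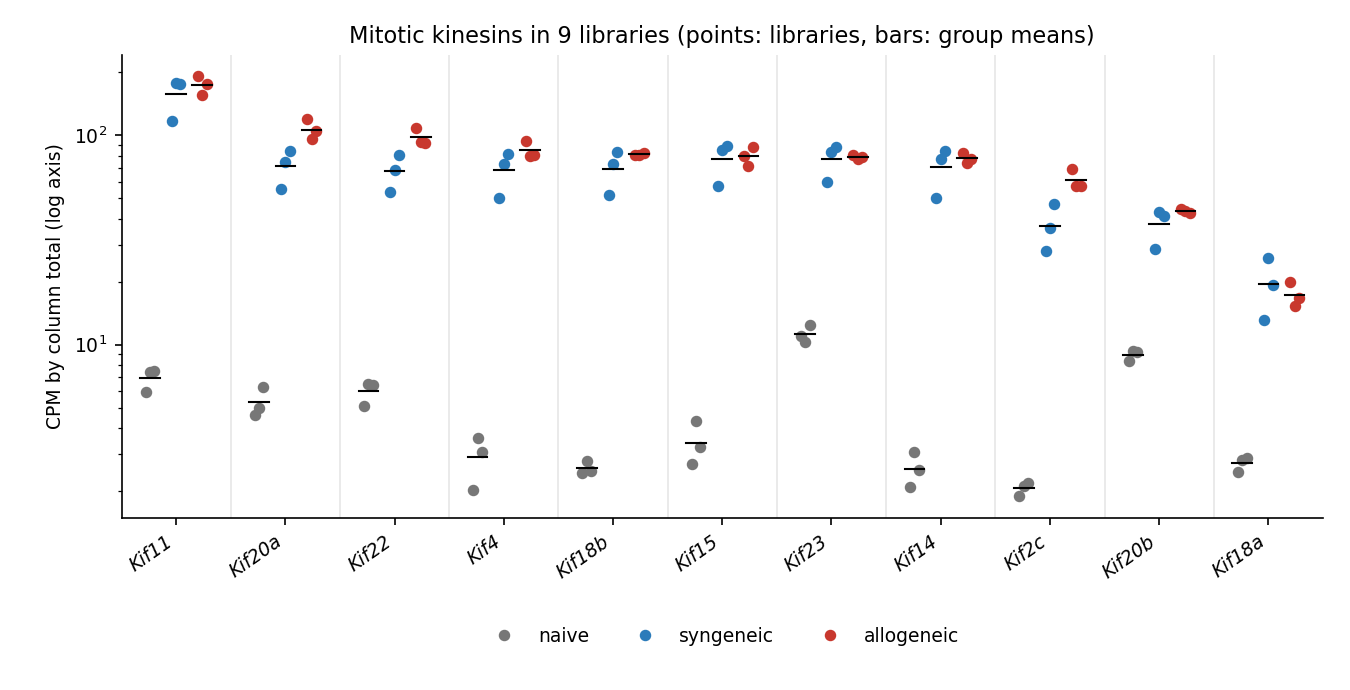
Levels of the 11 mitotic kinesins, as CPM on a log axis, with 1 point per library and a bar at each group mean. For every gene the naive libraries, at 1.88 to 12.4 CPM, lie below all transplant libraries, while syngeneic and allogeneic libraries overlap except for Kif20a, Kif22 and Kif2c.

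The makeup of the mitotic set, which does not depend on the scaling of a library, differed between naive and transplant cells. Kif23 held 20.6 ± 2.44% (SD, n = 3) of the summed CPM of the 11 genes in naive libraries, 10.3 ± 0.26% after syngeneic and 8.74 ± 0.45% after allogeneic transplant. Kif20b held 16.5 ± 0.62%, 5.01 ± 0.28% and 4.83 ± 0.31%. Kif11 held 12.7 ± 0.42% in naive libraries and rose to 20.9 ± 0.79% and 19.3 ± 0.69%. Between the transplant groups, Kif2c went from 4.91 ± 0.47% in syngeneic to 6.77 ± 0.38% in allogeneic libraries and Kif20a from 9.51 ± 0.33% to 11.8 ± 0.49%, and neither share overlapped between the groups. The same lack of overlap held for Kif22, whose share was higher in allogeneic libraries. It also held for Kif11, Kif14, Kif15, Kif18a and Kif23, whose shares were lower in allogeneic libraries. These shares were chosen for their values and carry no test.

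Because the mitotic members moved together, their promoters were read for known elements. Many late cell cycle genes carry the cell cycle genes homology region (CHR), a short element to which the repressor complex DREAM binds in resting cells. RefSeq promoter windows on GRCm38.p6, each of 250 bases before to 50 bases after an annotated start, were found for 28 of the 35 members. The windows were searched on both strands for the CHR letters TTTGAA, which read TTCAAA on the other strand. Of 10 mitotic windows 9 held a match, and of all 32851 RefSeq windows of that length 17.9% did. Of 12 transport windows 1 did, and of 10 windows of other kinesins 2 did (Kif26b and Kif27). The transport match was in a Kif1a window whose start lies 19471 bases inside the gene as GENCODE draws it. The matching windows of Kif4, Kif14, Kif2c and Kif27 also start inside, by 328, 1505, 3867 and 4175 bases. That of Kif17, a transport window with no match, starts 11816 bases inside. The mitotic window with no match was that of Kif18a. A CCAAT box (CCAAT), the site of the factor NF-Y, stood in 6 of 10 mitotic, 4 of 12 transport and 3 of 10 other windows. Of all windows 37.4% held one. It stood in the same window as a CHR match in 6 of 10 mitotic windows (Kif11, Kif14, Kif18b, Kif22, Kif23 and Kif4), in 0 of 12 transport windows and in 6.95% of all windows. Both also stood in 2 of 10 windows of other kinesins, those of Kif26b and Kif27. Of these, Kif26b was not called against naive in either transplant group and Kif27 did not pass the filter. The E2F-type letters TTCCCGC or the variant TTCGCGC, and TTGCCGC or the variant TTGGCGC, matched in the mitotic windows of Kif15 and Kif18a, 2 of 10, in 1 of 12 transport windows and in 9.57% of all windows. Matches are a description of letters, not of binding, and these windows were not measured in the cells.

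The 30 bases around the CHR match nearest to the start show where the letters of the mitotic set coincide, each read 5′ to 3′ in the direction of the gene with the match in capitals (in Kif20b, whose letters repeat, the first match). In Kif11, Kif15 and Kif22 the match ended 13, 13 and 11 bases before the start, and in Kif23, Kif18b, Kif20b and Kif4 it began 2, 3, 7 and 19 bases after it. In Kif2c and Kif14 it lay 97 and 222 bases before the start. The Kif2c start used by RefSeq lies 3867 bases inside the gene as GENCODE draws it, and that of Kif14 lies 1505 bases inside.
Kif11, chr19:37376351-37376380, plus strand: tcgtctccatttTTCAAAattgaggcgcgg
Kif15, chr9:122951050-122951079, plus strand: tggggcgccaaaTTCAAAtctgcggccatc
Kif22, chr7:127042420-127042449, minus strand: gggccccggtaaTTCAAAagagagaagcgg
Kif23, chr9:61946780-61946809, minus strand: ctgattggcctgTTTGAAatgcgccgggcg
Kif18b, chr11:102925104-102925133, minus strand: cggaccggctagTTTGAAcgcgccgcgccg
Kif20b, chr19:34922353-34922382, plus strand: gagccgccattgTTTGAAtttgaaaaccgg
Kif4, chrX:100626072-100626101, plus strand: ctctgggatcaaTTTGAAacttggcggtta
Kif2c, chr4:117178858-117178887, minus strand: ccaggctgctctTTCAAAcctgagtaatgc
Kif14, chr1:136467608-136467637, plus strand: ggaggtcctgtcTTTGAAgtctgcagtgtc

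The 120 bases before the start set 2 mitotic promoters beside those of 2 transport kinesins that moved in opposite directions, with matches to any of the motifs in capitals. In Kif11 and Kif22 a CCAAT box, read as ATTGG on the printed strand, precedes the CHR letters. Kif1b holds CCAAT boxes and no CHR letters in the printed stretch, and Kif1c holds no match.
Kif11, chr19:37376262-37376381, plus strand: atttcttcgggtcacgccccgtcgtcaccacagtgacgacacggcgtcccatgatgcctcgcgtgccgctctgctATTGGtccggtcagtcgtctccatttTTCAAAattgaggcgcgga
Kif22, chr7:127042421-127042540, minus strand: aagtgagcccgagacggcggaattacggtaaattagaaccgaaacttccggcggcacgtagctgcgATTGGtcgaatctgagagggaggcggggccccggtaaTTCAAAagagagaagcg
Kif1b, chr4:149307734-149307853, minus strand: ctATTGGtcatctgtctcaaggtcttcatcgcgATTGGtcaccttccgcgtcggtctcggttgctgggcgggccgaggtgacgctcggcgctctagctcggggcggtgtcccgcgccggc
Kif1c, chr11:70700428-70700547, plus strand: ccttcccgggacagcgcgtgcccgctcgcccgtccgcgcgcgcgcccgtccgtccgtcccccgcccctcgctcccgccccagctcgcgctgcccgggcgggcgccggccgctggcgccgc

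**Figure D2:**
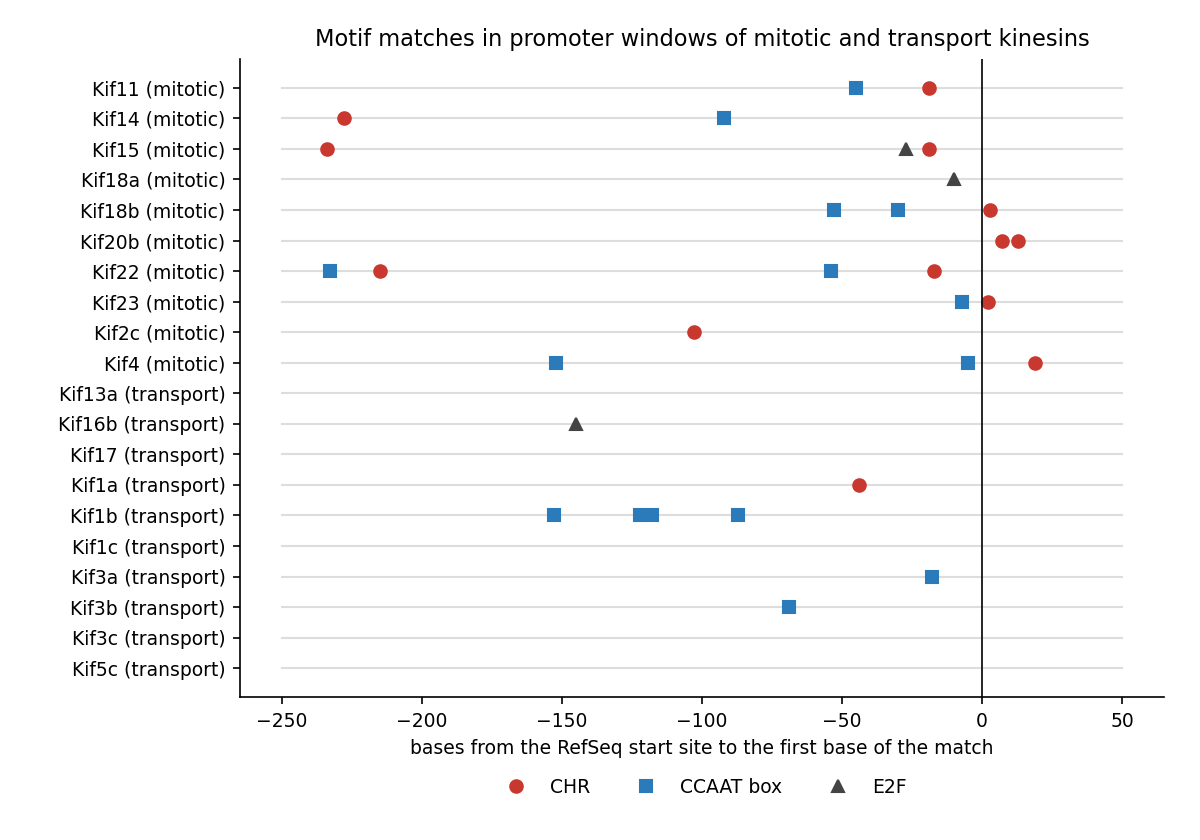
Distance in bases from the RefSeq start to the first base of each motif match, for mitotic and transport kinesins with a promoter window (1 line per gene; Kif1a and Kif1b have more than 1 window, drawn on the same line). CHR matches appear in 9 of 10 mitotic windows, 7 of them within 20 bases of the start, and in 1 of 12 transport windows.

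Transport kinesins did not move as a set. Against naive cells, 2 of 12 rose and 3 fell in syngeneic libraries (22.4% and 19.5% of all genes were called higher and lower, and 4.95% lower with at least a 2-fold change, as no member was), and 5 rose and 5 fell in allogeneic libraries (31.8% and 25.9% of all genes). Between the transplant groups 4 rose and 3 fell in allogeneic libraries, where 24.3% and 20.7% of all genes were called higher and lower, or 45.0% in either direction. The median log2 fold change over the 12 genes was -0.15, 0.11 and 0.12 in these comparisons. The medians lay near 0 and moved with single libraries: between the transplant groups the median was -0.03 without allogeneic library 3, and in allogeneic against naive libraries it was 0.29 without naive library 3 or allogeneic library 1, 0.25 without syngeneic library 1, 0.26 without allogeneic library 2, and -0.24 over genes of at least 1 CPM in 3 libraries. In syngeneic against naive libraries the median was -0.08 to -0.10 without naive library 2, naive library 3, allogeneic library 1 or allogeneic library 2. The counts moved too: 3 rose in allogeneic against naive libraries without naive library 2 or allogeneic library 3, 1 rose in syngeneic against naive libraries without naive library 1, syngeneic library 2 or syngeneic library 3, and 5 fell between the transplant groups without syngeneic library 1. Kif1a, a synaptic vesicle motor of neurons, and Kif28 did not pass the filter, at 0.277 CPM or less in every library. The 14 T-cell markers had a median log2 fold change of -0.59 in syngeneic and -0.11 in allogeneic against naive libraries. In allogeneic against syngeneic libraries their median was 0.50. The part of this marker shift in the changes of single transport kinesins was not tested.

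Kif1b, which carries mitochondria and synaptic vesicle precursors in neurons, had the largest fall from naive of the transport kinesins in both transplant groups. It was at 209, 250 and 206 CPM in naive, 139, 129 and 115 CPM in syngeneic and 38.0, 48.4 and 52.6 CPM in allogeneic cells. The 3 groups did not overlap and stood in descending order. The log2 fold change was -0.75 ± 0.11 in syngeneic against naive (edgeR adjusted p = 0.000319), -2.21 ± 0.12 in allogeneic against naive (edgeR adjusted p = 3.92e-08) and -1.46 ± 0.12 in allogeneic against syngeneic libraries (edgeR adjusted p = 2.42e-06). Its close relative Kif1c, which moves vesicles and integrins, rose in allogeneic libraries. Its level was 72.9, 71.6 and 77.3 CPM in naive, 72.6, 64.7 and 76.0 CPM in syngeneic and 107, 136 and 120 CPM in allogeneic cells, with a log2 fold change of 0.78 ± 0.10 in allogeneic against syngeneic libraries (edgeR adjusted p = 8.13e-05). The syngeneic and naive libraries overlapped (log2 fold change -0.02 ± 0.10, edgeR adjusted p = 0.906).

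The conventional kinesin heavy chains, which pull mitochondria, lysosomes and lytic granules with the kinesin light chains, differed from one another. Kif5b, the ubiquitous heavy chain, had the highest mean level per length of the transport set in every group, at 18.1 ± 0.58, 20.3 ± 0.79 and 20.8 ± 2.42 CPM per kb of exon (SD, n = 3) in the naive, syngeneic and allogeneic libraries. Its libraries were at 140, 144 and 149 CPM in naive, 155, 167 and 164 CPM in syngeneic and 145, 170 and 182 CPM in allogeneic cells. The log2 fold change of Kif5b was 0.21 ± 0.07 in syngeneic (edgeR adjusted p = 0.0423) and 0.25 ± 0.07 in allogeneic libraries against naive (edgeR adjusted p = 0.013). Neither call was stable: it was lost in allogeneic libraries without naive library 1 (edgeR adjusted p = 0.063), naive library 2 (0.0517) or allogeneic library 3 (0.129), and in syngeneic libraries without any one of 7 of the 9 libraries. Kif5c was at 5.28, 5.56 and 5.68 CPM in naive, 5.35, 5.43 and 4.34 CPM in syngeneic and 2.26, 3.27 and 3.29 CPM in allogeneic cells, and fell in allogeneic against syngeneic libraries by 0.78 on the log2 scale (SE 0.17, edgeR adjusted p = 0.0034). Kif5a, the chain made mainly in neurons, was low and rose in the allogeneic group, at 0.506, 0.388 and 0.262 CPM in naive, 0.430, 0.464 and 0.563 CPM in syngeneic and 0.958, 2.03 and 1.47 CPM in allogeneic cells (log2 fold change against syngeneic 1.62 ± 0.32, edgeR adjusted p = 0.00166). Kif5c thus lay lower, and Kif5a higher, in each allogeneic library than in any syngeneic one.

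Among the heterotrimeric kinesins, whose motor subunits Kif3a, Kif3b and Kif3c join the adaptor Kifap3 to serve cilia and vesicle transport, Kif3a alone was called between the transplant groups. It was at 4.24, 3.62 and 3.61 CPM in naive, 2.17, 3.50 and 3.03 CPM in syngeneic and 4.90, 5.51 and 5.54 CPM in allogeneic cells (log2 fold change 0.90 ± 0.18 against syngeneic, edgeR adjusted p = 0.00164). Against naive the difference of Kif3a was 0.53 ± 0.17 on the log2 scale (edgeR adjusted p = 0.0222), and that call was lost without naive library 2 (edgeR adjusted p = 0.075), naive library 3 (0.0577) or allogeneic library 3 (0.0734). Kif3b, the partner of Kif3a, had a mean of 11.2 CPM per kb of exon in naive libraries, where Kif3a had 1.07. Its level was 62.8 ± 1.07 CPM in naive, 52.5 ± 1.06 CPM in syngeneic and 59.6 ± 8.11 CPM in allogeneic cells (edgeR adjusted p = 0.0887 between the transplant groups, and 0.0379 without syngeneic library 1 and 0.0399 without allogeneic library 1). Against naive Kif3b was not called in syngeneic libraries (edgeR adjusted p = 0.0558), but was lower without syngeneic library 1 (0.0258), allogeneic library 1 (0.0368) or allogeneic library 3 (0.037), with column totals alone (0.0469), without Gm26917 and Gm42418 (0.049), over genes of at least 1 CPM in 3 libraries (0.0475) and in a fit of the 2 groups only (0.0202). Kif3c fell from 24.1 ± 2.84 CPM in naive to 14.8 ± 1.09 CPM in syngeneic libraries, by -0.67 ± 0.13 on the log2 scale (edgeR adjusted p = 0.00179), and was at 18.2 ± 2.56 CPM in allogeneic cells. Its fall in allogeneic against naive libraries (edgeR adjusted p = 0.0337) was lost without naive library 3 (0.159) or allogeneic library 1 (0.0995), and without syngeneic library 1 it was higher in allogeneic than in syngeneic libraries (0.0237). Exons of other genes on the opposite strand cover 40.7% of the exon length of Kif3c, so that its counts may include their reads.

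Kif13b, which carries membrane proteins and binds the scaffold Dlg1, was at 48.4, 51.4 and 46.6 CPM in naive, 40.4, 48.3 and 47.7 CPM in syngeneic and 56.7, 71.1 and 65.8 CPM in allogeneic cells. All allogeneic libraries lay above the others (log2 fold change against syngeneic 0.52 ± 0.08, edgeR adjusted p = 0.000222). Kif13a, a motor of recycling endosomes, was at 9.73, 11.6 and 8.81 CPM in naive, 4.25, 9.07 and 8.85 CPM in syngeneic and 4.53, 3.42 and 7.00 CPM in allogeneic cells. It fell in allogeneic against naive libraries by 0.97 on the log2 scale (edgeR adjusted p = 0.0119). Between the transplant groups it was not called (edgeR adjusted p = 0.134), but was lower in allogeneic cells without syngeneic library 1 (0.0175) or allogeneic library 3 (0.0478). Kif16b, a motor of early endosomes, was lower in both transplant groups than in naive cells, at 46.8 ± 2.51 CPM in naive, 36.4 ± 2.12 CPM in syngeneic and 35.3 ± 3.51 CPM in allogeneic cells (log2 fold changes -0.33 ± 0.07 and -0.36 ± 0.07, edgeR adjusted p = 0.00305 and 0.0011). Kif17, a motor known from dendrites and cilia, was near the lower limit of detection, at 0.159, 0.088 and 0.096 CPM in naive, 0.215, 0.538 and 0.747 CPM in syngeneic and 0.136, 0.192 and 0.192 CPM in allogeneic cells. It was highest in the syngeneic libraries 2 and 3, those with the most erythroid and neutrophil counts, whose part in this result was not tested. Against naive, Kif17 was called higher in syngeneic libraries (log2 fold change 2.11 ± 0.46, edgeR adjusted p = 0.00321). In allogeneic against naive libraries it was not called (0.63 ± 0.47, edgeR adjusted p = 0.269). Its lower level in allogeneic against syngeneic libraries (log2 fold change -1.49 ± 0.44, edgeR adjusted p = 0.0174) was not called without syngeneic library 3 (0.094) or allogeneic library 1 (0.0542).

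**Figure D3:**
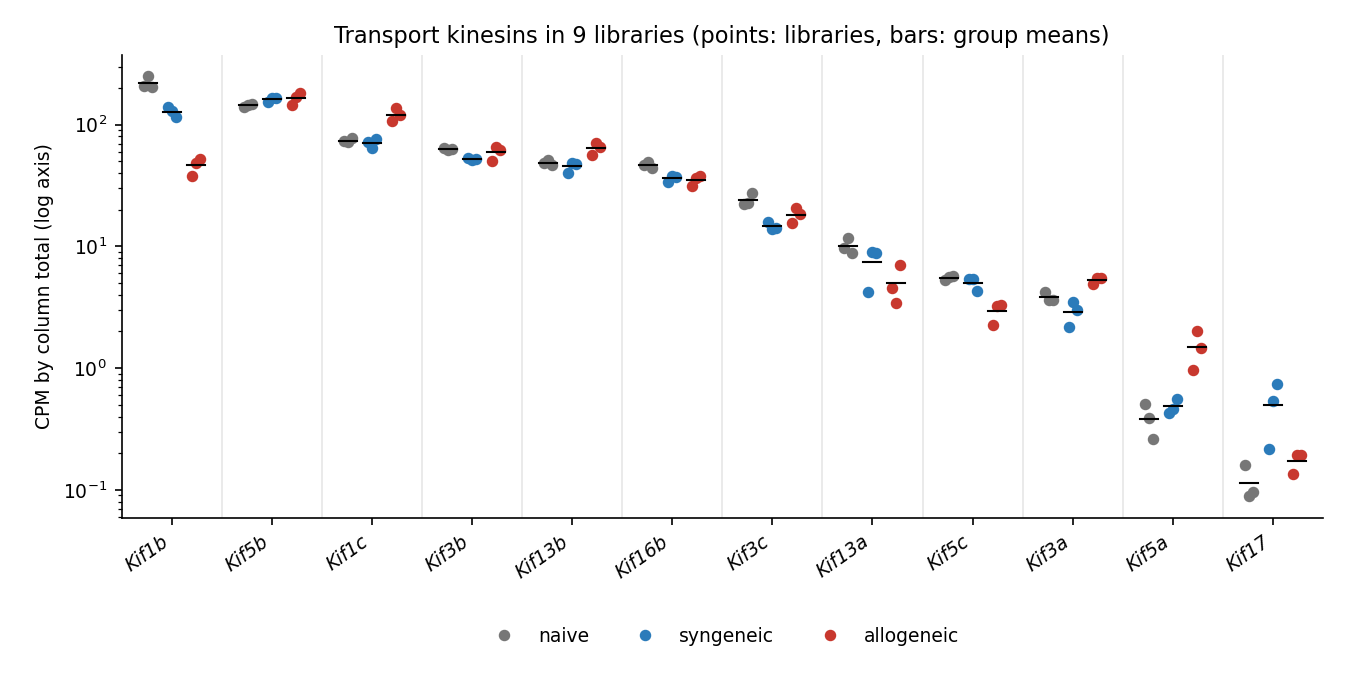
Levels of the 12 transport kinesins that passed the filter, as CPM on a log axis, with 1 point per library and a bar at each group mean. Kif1b steps down from naive to syngeneic to allogeneic libraries, Kif1c, Kif13b, Kif3a and Kif5a are highest in allogeneic libraries, and Kif5b is at 140 to 182 CPM throughout.

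Set against each other within a library, the summed CPM of the 11 mitotic genes went from far below to above that of the 14 transport genes. The mitotic sum was 48.5, 57.05 and 58.1 CPM in naive, 565, 817 and 876 CPM in syngeneic and 971, 845 and 896 CPM in allogeneic cells. The transport sum was 623, 673 and 632 CPM in naive, 523, 532 and 525 CPM in syngeneic and 456, 563 and 557 CPM in allogeneic cells. The ratio of mitotic to transport CPM had a mean of 0.085 ± 0.007 (SD, n = 3) in naive cells, 1.43 ± 0.31 after syngeneic and 1.75 ± 0.34 after allogeneic transplant, or -3.56 ± 0.12, 0.49 ± 0.33 and 0.79 ± 0.27 as log2 ratios. The transplant groups overlapped in this ratio, with syngeneic library 1 the lowest at 1.08 and allogeneic library 1 the highest at 2.13. The difference in log2 ratio of mitotic to transport kinesin CPM between the transplant groups was 0.30, or 0.15 without allogeneic library 1 and 0.11 without syngeneic library 1. The mitotic sum was lowest among transplant libraries in syngeneic library 1, the one with the fewest erythroid and neutrophil counts of its group. In allogeneic libraries, with 31.4 to 98.3 CPM of erythroid markers, the mitotic sum was 845 to 971 CPM, against 565 to 876 CPM in syngeneic libraries, with 2424 to 6444 CPM of erythroid markers. Neutrophil markers were at 626 to 1117 CPM in allogeneic and 415 to 1384 CPM in syngeneic libraries, against 4.24 to 8.24 CPM in naive libraries. The part of these other cells in the mitotic sum was not tested.

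**Figure D4:**
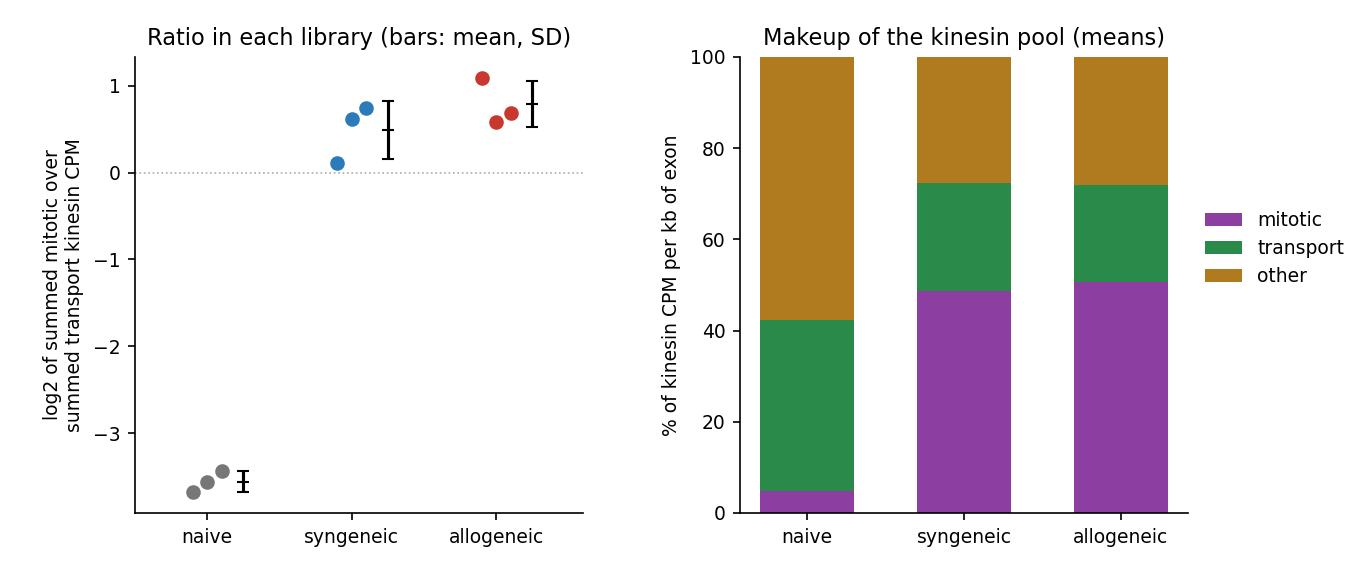
Left, log2 of the summed mitotic over the summed transport kinesin CPM, with 1 point per library and the mean and SD of each group beside the points. Right, mean share of each class in the kinesin CPM per kb of exon; the mitotic share is 4.82% in naive cells, 48.6% after syngeneic and 50.6% after allogeneic transplant.

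Per length, 1 gene outweighed all others in naive cells. Kif21b, which pauses microtubule growth and in T cells acts on the positioning of the centrosome at the immune synapse, stood at 1136, 1096 and 1116 CPM in naive, 673, 620 and 613 CPM in syngeneic and 571, 1013 and 906 CPM in allogeneic cells. Kif21b and the genes Kif24, Kif2a, Kif7 and Kif9 were named after their values were seen. It held 51.2 ± 1.06% (SD, n = 3) of the kinesin CPM per kb of exon in naive cells, 21.1 ± 3.53% after syngeneic and 22.3 ± 5.18% after allogeneic transplant, and had the highest level per kb in each group, with no overlap with the next gene. The fall in syngeneic against naive libraries was called (log2 fold change -0.77 ± 0.15, edgeR adjusted p = 0.00167). In that comparison 10 of 14 T-cell markers were also lower and none higher, with a median of -0.59. The part of that shift in the fall of Kif21b was not tested. In allogeneic libraries the call against naive (log2 fold change -0.39 ± 0.15, edgeR adjusted p = 0.0427) was lost without naive library 1 (edgeR adjusted p = 0.107), naive library 2 (0.0667), naive library 3 (0.0973), syngeneic library 3 (0.0566) or allogeneic library 1 (0.12). Between the transplant groups Kif21b was not called (edgeR adjusted p = 0.0579), but was higher in allogeneic cells without allogeneic library 1 (0.00273) or syngeneic library 1 (0.0277), and by DESeq2 on all libraries (DESeq2 adjusted p = 0.035).

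In naive cells the order by CPM per kb of exon went on with Kif5b (18.1), Kif1b (12.6), Kif3b (11.2), Kif1c (10.2) and Kif2a (9.84), and the libraries of Kif1c and Kif2a overlapped. The first mitotic gene in that order was Kif23, at rank 10 with 1.42 CPM per kb. In syngeneic libraries Kif11 (21.1), Kif5b (20.3), Kif18b (19.4), Kif20a (16.5) and Kif22 (13.8) followed Kif21b, and each overlapped the next. In allogeneic libraries the order after Kif21b was Kif20a (24.6), Kif11 (23.4), Kif18b (22.7), Kif5b (20.8) and Kif22, and each of these overlapped the next but Kif22, which lay above Kif1c without overlap. Mitotic genes thus took 4 of the 5 places after Kif21b in each transplant group and none in naive cells. Exons of the anaphase gene Cdc23 on the opposite strand cover 29.3% of the exon length of Kif20a, and Pdzd11 covers 15.1% of Kif4.

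The other kinesins held 2 that rose and 3 that fell among 7 tested in allogeneic against syngeneic libraries, where 24.3% of all genes were called higher and 20.7% lower. Kif19a, a motor that shortens microtubules at the tips of cilia, had the largest fold change of the family in this comparison. Kif19a was at 0.159, 0.168 and 0.140 CPM in naive, 0.138, 0.232 and 0.184 CPM in syngeneic and 1.44, 2.22 and 2.59 CPM in allogeneic cells, where counts were 170 to 393. The allogeneic libraries lay apart from all others, with a log2 fold change of 3.50 ± 0.29 against syngeneic (edgeR adjusted p = 3.19e-06) and 3.77 ± 0.29 against naive (edgeR adjusted p = 7.77e-07). Kif26b, whose product lacks motor activity, was at 0.051 to 0.223 CPM in all libraries, and its lower value in allogeneic against syngeneic libraries (log2 fold change -1.34 ± 0.45, edgeR adjusted p = 0.0329) was lost without syngeneic library 1 (0.151), syngeneic library 3 (0.0544), allogeneic library 1 (0.0904) or allogeneic library 2 (0.109) and by DESeq2 (0.0788). Kif24, a microtubule depolymerase of the mother centriole, also rose against naive, from 5.16, 6.37 and 4.39 CPM in naive to 16.0, 27.5 and 27.9 CPM in syngeneic and 15.8, 14.2 and 16.0 CPM in allogeneic cells (log2 fold changes 2.19 ± 0.19 and 1.59 ± 0.19, edgeR adjusted p = 5.17e-06 and 2.57e-05). It was lower in allogeneic than in syngeneic libraries (edgeR adjusted p = 0.0198), a call lost without syngeneic library 2 (0.0729), syngeneic library 3 (0.084), allogeneic library 2 (0.0725) or allogeneic library 3 (0.0519). Syngeneic library 1 lay within the allogeneic range. Kif24 was highest in syngeneic libraries 2 and 3, those with the most erythroid and neutrophil counts, whose part was not tested. Kif2a, a depolymerase of spindle poles and of interphase microtubules, rose against naive by 0.39 ± 0.09 in syngeneic and 0.63 ± 0.09 in allogeneic libraries on the log2 scale (edgeR adjusted p = 0.00412 and 9.47e-05). Its call between the transplant groups (0.24 ± 0.09, edgeR adjusted p = 0.0452) was lost without any one of 6 of the 9 libraries. Exons of Dimt1 on the opposite strand cover 19.2% of the exon length of Kif2a. Kif7, a regulator of Hedgehog signalling, was lower in allogeneic cells, at 2.11 ± 0.30 CPM against 3.16 ± 0.12 CPM in syngeneic cells (edgeR adjusted p = 0.0117), and opposite-strand exons cover 20.3% of its length. Kif9, a ciliary kinesin at 1.17 CPM or less, was called higher in syngeneic than in naive libraries (edgeR adjusted p = 0.0405), and this call was lost without any one of 6 of the 9 libraries. In allogeneic against naive libraries it was not called (edgeR adjusted p = 0.107) but was higher without naive library 1 (0.0122). Kif21a, Kif26a and Kif27 did not pass the filter, at 0.083 CPM or less in every library.

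Between the transplant groups, 3 of the 11 mitotic kinesins were higher in allogeneic libraries and none was lower, a share close to the 24.3% of all genes called higher. None of the 11 reached a 2-fold change, while 7.82% of all genes were called higher and 11.6% lower with at least that change. The 3 were Kif2c (log2 fold change 0.76 ± 0.17, edgeR adjusted p = 0.00314), Kif20a (0.61 ± 0.16, edgeR adjusted p = 0.0103) and Kif22 (0.57 ± 0.15, edgeR adjusted p = 0.00874). These 3 were also the only mitotic members whose libraries did not overlap between the groups, against 52.7% of all genes, and each stayed called with any 1 library left out. The other 8 had log2 fold changes of -0.13 to 0.35. Kif18b was not called (0.26 ± 0.12, edgeR adjusted p = 0.11) but was higher without syngeneic library 3 (0.0263). The sign of Kif15, Kif18a and Kif23 changed with the library left out. Of the 12 transport kinesins, 7 did not overlap between these groups.

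**Figure D5:**
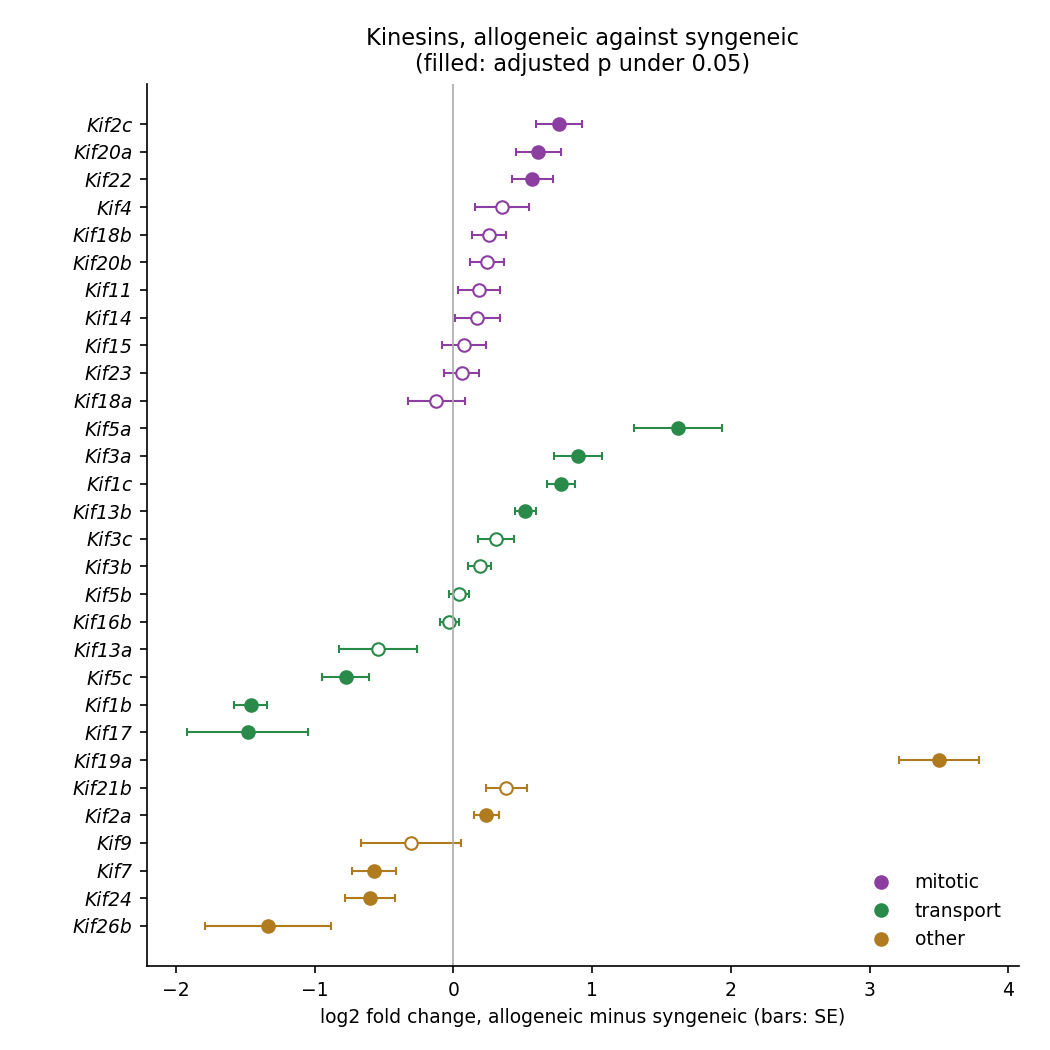
Log2 fold change of each tested kinesin in allogeneic against syngeneic libraries, with its SE, grouped by class; filled points have an edgeR adjusted p under 0.05. The 11 mitotic members lie between -0.13 and 0.76, while transport members range from -1.49 to 1.62 and Kif19a stands at 3.50.

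Of 6 motors tested that are named outside the Kif scheme, 4 were higher and 0 lower in syngeneic, and 3 higher and 1 lower in allogeneic, than in naive libraries. Of all genes, 22.4% were called higher and 19.5% lower in syngeneic, and 31.8% and 25.9% in allogeneic libraries. Cenpe, the kinetochore motor, rose by 4.51 in syngeneic and 4.85 in allogeneic libraries on the log2 scale (edgeR adjusted p = 2.94e-08 and 5.11e-09), and the minus-end spindle motor Kifc1 by 1.93 and 2.10 (edgeR adjusted p = 3.11e-06 and 6.42e-07). Cenpe, Kifc1, Nek9 and Mcm2 were named after their values were seen. Reads of Kifc1 and its near copy Kifc5b may be shared. Of these 6 genes only Kifc3, a minus-end motor of cell junctions and membranes, was called between the transplant groups, and it went down from 4.22 to 0.752 CPM, with -2.49 ± 0.25 on the log2 scale (edgeR adjusted p = 1.28e-05).

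Partners and regulators of the mitotic kinesins also rose. Of 17 genes, 16 were higher in each transplant group than in naive cells (22.4% of all genes in syngeneic and 31.8% in allogeneic libraries), with medians of 3.78 in syngeneic and 4.46 in allogeneic libraries on the log2 scale. The exception was Nek9, a kinase upstream of Eg5, which fell slightly in syngeneic libraries (-0.22 ± 0.08, edgeR adjusted p = 0.0453) and was at -0.04 ± 0.08 in allogeneic libraries (edgeR adjusted p = 0.703). In allogeneic against syngeneic libraries 10 of 17 were higher and none lower (24.3% of all genes were called higher), with a median of 0.40 where that of all genes was -0.03. The largest changes were those of Nek6, a kinase that activates Eg5 (1.18 ± 0.22, edgeR adjusted p = 0.00143), Cep55, the midbody scaffold (0.88 ± 0.13, edgeR adjusted p = 0.00019), and Ckap2, a spindle protein (0.65 ± 0.16, edgeR adjusted p = 0.0061). Of 15 proliferation genes all rose against naive in both groups, and 3 were higher and 1 lower in allogeneic against syngeneic libraries, where 24.3% of all genes were called higher and 20.7% lower, with a median of 0.08. The 3 that were higher were the mitotic cyclins Ccnb2 (0.93 ± 0.17, edgeR adjusted p = 0.00114) and Ccnb1 (0.59 ± 0.23, edgeR adjusted p = 0.05 after rounding, just inside the threshold) and the checkpoint kinase Bub1b (0.40 ± 0.11, edgeR adjusted p = 0.0132), and the 1 that was lower was Mcm2, a subunit of the replication helicase (-0.31 ± 0.10, edgeR adjusted p = 0.0227). The mitotic genes Cdk1, Bub1, Ccna2 and Top2a and the helicase genes Mcm3, Mcm5 and Mcm6 were not called.

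Light chains and cargo adaptors moved in both directions. Of 21 tested, 12 rose and 2 fell in allogeneic against syngeneic libraries (24.3% and 20.7% of all genes), with a median of 0.29. The largest changes were those of Klc3, Trak2 and the JNK scaffold Mapk8ip1 (1.26 ± 0.29, edgeR adjusted p = 0.00439). Klc3, a kinesin light chain, rose from 2.46 to 7.52 CPM (1.62 ± 0.16, edgeR adjusted p = 1.14e-05). Trak2, which links conventional kinesin to mitochondria, was at 102 CPM against 264 CPM in syngeneic libraries (-1.35 ± 0.17, edgeR adjusted p = 8.36e-05). Its naive mean was also 102 CPM, and syngeneic libraries 1, 2 and 3 were at 168, 334 and 289 CPM. Syngeneic libraries 2 and 3 had the most erythroid counts, whose part in this difference was not tested. Against naive, 2 rose and 8 fell in syngeneic libraries (22.4% and 19.5% of all genes) and 8 rose and 4 fell in allogeneic libraries (31.8% and 25.9% of all genes). The opposite motor, dynein with its activator dynactin, had 14 of 26 genes higher and none lower in allogeneic against syngeneic libraries, all under 2-fold, with a median of 0.40, where 24.3% of all genes were called higher. The T-cell markers also rose in this comparison, 9 of 14 with none lower and a median of 0.50. Actr1a, the dynactin filament subunit, rose from 128 to 217 CPM (0.78 ± 0.09, edgeR adjusted p = 5.62e-05), Dctn2 from 59.1 to 100 CPM (0.78 ± 0.11, edgeR adjusted p = 0.000181) and Dynlrb1, a dynein light chain, from 52.9 to 81.8 CPM (0.64 ± 0.11, edgeR adjusted p = 0.000739). Against naive, 14 dynein and dynactin genes were higher and none lower in allogeneic libraries (31.8% and 25.9% of all genes), with a median of 0.42. In syngeneic libraries 3 were higher and 3 lower (22.4% and 19.5% of all genes), with a median of -0.03. Of the T-cell markers, 2 were higher and 1 lower in allogeneic libraries, with a median of -0.11. In syngeneic libraries 10 of them were lower and none higher, with a median of -0.59.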

How the data were processed

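The deposited table holds raw read counts per Ensembl gene, which the authors made with TopHat2 2.0.13, Bowtie2 2.2.1 and HTSeq 0.6.1 on build GRCm38 after FastQC 0.11.3, per the submitters' processing notes. For the counting, the annotation and the strand setting were not given in the sources used here. Libraries were stranded and depleted of ribosomal RNA, per the labels' protocols. The pair Gm26917 and Gm42418 took 7.87 to 22.43% of counts.

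Members and lists were chosen with earlier results of these data known. Symbols, exon lengths and overlaps came from GENCODE M21, which held 29014 of the 29229 identifiers. Counts were fitted with edgeR 4.0.16 under R 4.3.3 (filterByExpr by group, TMM, quasi-likelihood F-test, 1 model of 9 libraries) and adjusted by Benjamini-Hochberg over 19609 genes. The fit was tested on simulated data. CPM was taken from column totals, with SD over 3 libraries. Every tested mitotic and transport member was named, of the other class those called with at least a 2-fold change between the transplant groups, and of each partner list the 3 largest called changes in that comparison. Alternatives were DESeq2 1.42.0, limma-voom 3.58.1, other scalings, filters and classes, the 2 groups alone, each library left out and a replicate block. Same-numbered libraries had correlations of -0.118 to 0.265 in their deviations, so the numbers were not taken as pairs. No replicates held identical values (chi-square per degree of freedom 22.5 to 362). The labels name no batch. Precision is limited by the 3 libraries a group.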

Additional observations from a re-analysis of the deposited data

How the results depend on the processing

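Counts and medians of the mitotic kinesins kept their side and direction under all alternatives run. Of 381 alternative values of class summaries 351 stayed within a set tolerance, 27 moved and 3 reversed. All 30 of these changes were for the transport class or the ratio. The tolerance was a fold limit for counts and the pooled SD over libraries for medians and ratios. Between the transplant groups, log2 ratio differences of 0.11 to 0.42 with 1 library left out counted as within it. Transport kinesins higher in allogeneic against naive libraries numbered 3 with column totals alone and 3 to 5 with 1 library left out, and the median was -0.24 over genes of at least 1 CPM in 3 libraries, -0.031 with Kif21a and Kif21b as transport and 0.088 to 0.29 with 1 library left out. In syngeneic against naive libraries 1 was higher with column totals, without Gm26917 and Gm42418, at 1 CPM in 3 libraries and with the replicate block, and 1 to 3 with 1 library left out; the median was -0.10 with no filter, -0.25 at 1 CPM, -0.22 with Kif21a and Kif21b as transport and -0.17 to -0.084 with 1 left out. Between the transplant groups 2 to 5 were lower and the median was -0.03 to 0.10 with 1 left out. The log2 ratio difference was 3.38 in allogeneic and 3.09 in syngeneic against naive libraries with Kif2a as mitotic, 5.13 and 4.86 with class medians, and 4.36 in syngeneic libraries with Kif21a and Kif21b as transport. The cause of these moves was not tested. Of 1611 values for single members 13 reversed, none of a gene called: between the transplant groups Kif15 (-0.058 to 0.18), Kif18a (-0.31 to 0.10), Kif23 (-0.056 to 0.15, and -0.011 at 1 CPM) and Kif5b (-0.03 to 0.082, and -0.021 at 1 CPM), in allogeneic against naive libraries Kif3b (-0.10 to 0.026), and in syngeneic against naive libraries Kif1c (-0.081 to 0.059, and 0.002 at 1 CPM), Kif26b (-0.13 to 0.43) and Kif5c (-0.18 to 0.028). The replicate block also ended the calls of Kif26b (edgeR adjusted p = 0.0583) and Kif2a (0.0637) between the transplant groups, of Kif21b (0.0654) and Kif3c (0.0591) in allogeneic and of Kif5b (0.0558) and Kif9 (0.0599) in syngeneic against naive libraries, and not every library correlated best with its own number. Column totals alone ended the calls of Kif2a (0.0856) between the transplant groups, of Kif21b (0.0537), Kif3a (0.0535) and Kif5b (0.0832) in allogeneic and of Kif5b (0.167) and Kif9 (0.0587) in syngeneic against naive libraries. No filter ended those of Kif26b (0.0611) and Kif2a (0.0561) between the transplant groups and of Kif5b (0.14) in syngeneic libraries. Leaving out Gm26917 and Gm42418 ended those of Kif2a (0.0557) and Kif5b (0.0653), and a minimum of 1 CPM (0.111) and a fit of the 2 groups only (0.0867) that of Kif2a, in the same comparisons. Members under 1 CPM rest on few counts.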
